A study of Arabidopsis thaliana with 12 samples.

Results

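The loci described here are 1537 assembled transcribed regions of Arabidopsis thaliana that carried almost no small RNA although RNA was read from them in the xrn3-8 mutant. They were taken from the 3206 loci of a small RNA table named xat, out of 9585 assembled loci in the series, by 2 limits. Members were thus selected on measured values. The small RNA count summed over the 6 small RNA libraries had to be under 10, and the RNA-seq count summed over the 3 xrn3-8 libraries had to be at least 30. The RNA minimum was met by 3109 xat loci, of which these are 49.4%. The 1572 other xat loci with that much RNA had 10 or more small RNA reads. A further 55 loci were under the small RNA limit but also under the RNA minimum.

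XRN3 is a nuclear 5′-to-3′ exoribonuclease that degrades the downstream RNA left after a transcript has been cleaved at its end, which releases the polymerase, and it also removes other aberrant RNA. Aberrant RNA that escapes decay can be copied into double-stranded RNA by RNA-dependent RNA polymerases such as RDR6, with SGS3. DICER-LIKE enzymes cut the double strand into small interfering RNAs, which ARGONAUTE proteins bind. Loss of RNA decay factors is known to raise such small RNAs at some transcripts in plants.

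RNA-seq was read from 3 libraries of the xrn3-8 genotype and 3 of wild-type Col-0, all from seedlings aged 21 days grown on soil. Small RNA came from other seedlings, aged 14 days and grown on MS plates, again 3 libraries of xrn3-8 and 3 of Col-0. The design text calls the replicates biological. No library of one assay is matched to a library of the other, and where RNA and small RNA are set side by side the assay, the age and the medium cannot be told apart. RNA-seq gene counts lay between 61604670 and 79845518 per library, and small RNA counts over genes between 5873199 and 7122245. XRN3 (AT1G75660) had 20.5 ± 1.31 CPM in xrn3-8 and 48.9 ± 0.24 CPM in Col-0 (SD, n = 3 each), a log2 fold change of -1.26 (SE 0.08, edgeR adjusted p = 2.6e-06). XRN3 also carried 1818725 small RNA reads over the xrn3-8 libraries and 1416 over the Col-0 libraries. CPM are counts per 1000000 scaled gene counts of the same assay. All 3 leaf markers were abundant, with means in xrn3-8 and Col-0 of 1129 and 2339 CPM for LHCB3, 774 and 1429 CPM for LHCA1, and 224 and 262 CPM for PSAD1. The first 2 were lower in xrn3-8 (edgeR adjusted p = 5.5e-05 and 0.00024) and PSAD1 did not pass (0.071). The 3 root markers were at or near 0, as RHD6 was at 0 in all 6 libraries, EXPA7 had means of 0.0042 and 0 CPM, and CASP1 of 0.207 and 0.0264 CPM, in xrn3-8 and Col-0. Of 4 floral organ genes, PI was higher in xrn3-8, with means of 1.94 CPM in xrn3-8 and 0.160 CPM in Col-0 (edgeR adjusted p = 9.8e-05). The other 3 had lower means in xrn3-8, with 0.143 and 0.347 CPM for AP1, 0.0704 and 0.227 CPM for AP3, and 0.0394 and 0.200 CPM for AG. AP1 and AP3 were tested and not called, and AG was not tested. The seed markers CRA1 and OLEO1 had means of 0.0041 and 0 CPM in xrn3-8 and 0.426 and 0.237 CPM in Col-0. The Col-0 means rest on replicate 3, as the Col-0 reads were 4, 0 and 72 for CRA1 and 0, 0 and 42 for OLEO1. Neither gene was tested. What part such tissue differences have in the RNA of the loci was not tested.

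The xat loci are not a neutral sample of unstable RNA. With edgeR, 2161 of them passed the filter on low counts, and each was called higher in the mutant's RNA, and 25 reads over the xrn3-8 libraries was the lowest RNA count in the table. The sources used here do not state the rule behind the xat table, and its loci are treated as chosen by the RNA contrast between the genotypes. RNA and small RNA values of the members are given below as descriptions, without tests. The loci carry identifiers that start with XLOC and have no gene name, and their position, strand and length are not used here. Reads per locus are not per length, so the order of loci by reads is not an order of transcript abundance.

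Small RNA was not read at all from some of these loci and was sparse at the rest. Of the 1537 members, 282 (18.3%) had 0 small RNA reads in all 6 libraries, 295 had 1 read, 826 had 1 to 4 and 429 had 5 to 9. The median was 2 reads, against 51 at the other xat loci with RNA. A count of 0 allows up to 3 reads, which is 0.0759 CPM of scaled small RNA gene counts over the 6 libraries. The counts showed no gap at the limit, with 85 loci at 8 reads, 66 at 9, 57 at 10 and 51 at 11. Just inside the limit, XLOC_000133 had 3, 2 and 2 small RNA reads in xrn3-8 and 1, 0 and 1 in Col-0, and XLOC_000263 had 0, 2 and 5 in xrn3-8 and 1, 0 and 1 in Col-0. Just outside, XLOC_000078 had 0, 2 and 7 reads in xrn3-8 and 1, 0 and 0 in Col-0, and XLOC_000137 had 3, 3 and 1 in xrn3-8 and 1, 1 and 1 in Col-0. At the RNA minimum, the members XLOC_000606 and XLOC_000970 had 30 RNA reads each in xrn3-8, and the loci XLOC_000241 and XLOC_000361, which are no members, had 29 each.

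**Figure D1:**
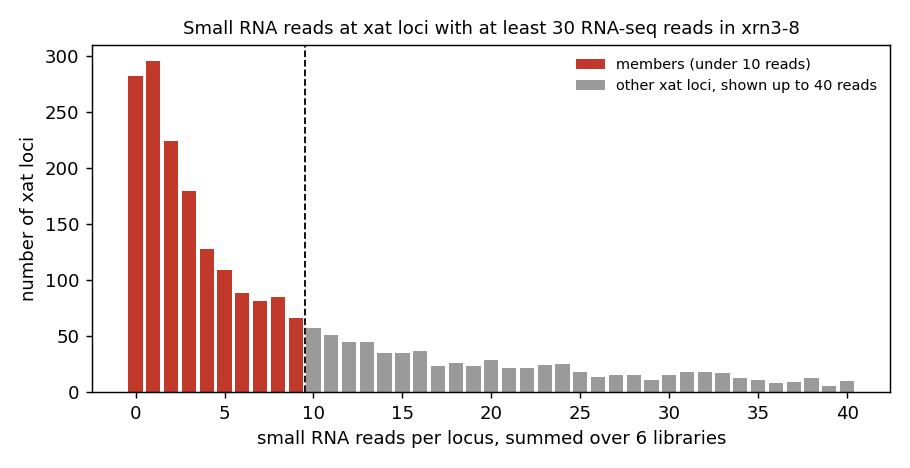
Number of xat loci with at least 30 RNA-seq reads in xrn3-8 (vertical axis) by their small RNA reads summed over 6 libraries (horizontal axis, shown up to 40). Members are the red bars left of the dashed limit. The counts decline from 282 loci at 0 reads to 66 at 9 and 57 at 10, with no gap at the limit.

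The members were lightly read loci. Their RNA count summed over the 3 xrn3-8 libraries had a median of 71, with quartiles of 47 and 130 and a highest value of 2802. The other xat loci with RNA had a median of 91. The median level of a member was 0.317 CPM in xrn3-8 and 0.0203 CPM in Col-0, 161 members reached a mean of 1 CPM in xrn3-8 and 4 reached 5 CPM. The members held 40.1% of the xrn3-8 RNA reads of the xat table, beside 0.0315% of its small RNA reads (4706 of 14944706). The limit of under 10 small RNA reads per member fixes that the second share is very small, so nothing is read from it. The 3 loci with the most small RNA held 81.2% of that small RNA. Across the 3109 xat loci with RNA, RNA and small RNA reads were weakly related, with a Spearman rho of 0.19. This is a description over loci, which share libraries and whose lengths are not used here.

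**Figure D2:**
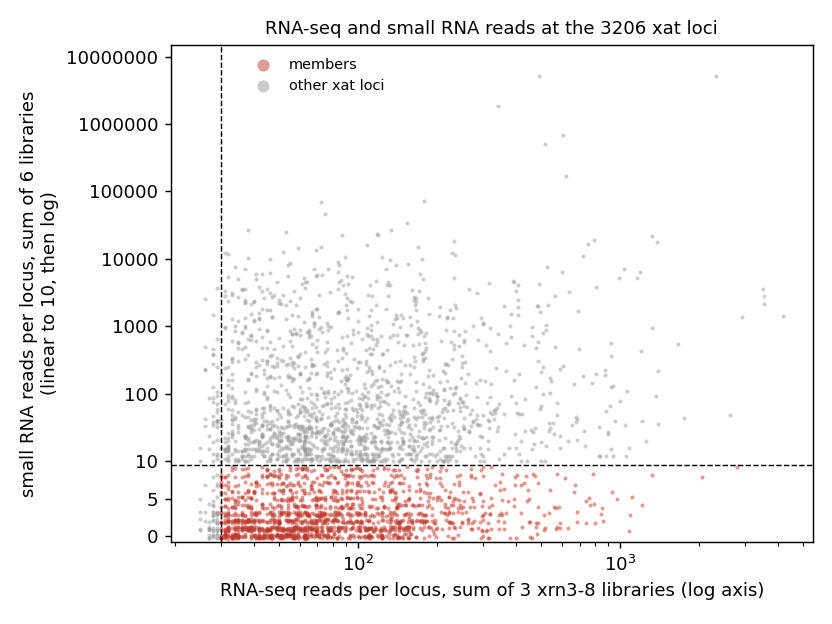
Small RNA reads summed over 6 libraries (vertical axis, linear to 10 and logarithmic above, points under 10 spread slightly at random) against RNA-seq reads summed over 3 xrn3-8 libraries (horizontal log axis) for 3206 xat loci. Members (red) lie right of 30 RNA reads and under 10 small RNA reads, and extend to 2802 RNA reads. Of the other loci (grey), those with at least 30 RNA reads have a median of 51 small RNA reads.

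The share of xat loci with under 10 small RNA reads was lower among loci with more RNA reads. It was 54.4% of the 1843 loci with 30 to 99 RNA reads in xrn3-8, 44.1% of 993 with at least 100 and under 300, 36.9% of 241 with at least 300 and under 1000, and 21.9% of 32 with 1000 or more. Loci with 0 small RNA reads made up 11.6%, 6.14%, 3.32% and 0% of the same classes. Counts under 10 were common among annotated genes too. Among nuclear annotated genes the share under 10 was 68.8% of 1941 genes with 30 to 99 RNA reads, 65.0% of 2017, 57.8% of 3663 and 27.7% of 13203. Among nuclear genes called higher in xrn3-8 it was 67.0% of 200, 65.9% of 375, 58.8% of 636 and 21.7% of 2044. In the 3 lower classes the xat loci thus had the smaller share, and the median locus had more small RNA per RNA read than the median gene (13.8, 8.59 and 4.76 small RNA reads per 100 RNA reads at xat loci, against 7.69, 3.10 and 1.26 at nuclear genes). In these proportions small RNA is summed over the 6 libraries of both genotypes and RNA over the 3 xrn3-8 libraries. Genes and loci were counted together for RNA-seq but separately for small RNA. A locus that overlaps a gene may thus have lost RNA reads alone, which would raise its proportion. These shares and proportions were not tested, since loci are not replicates and their lengths were not compared.

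**Figure D3:**
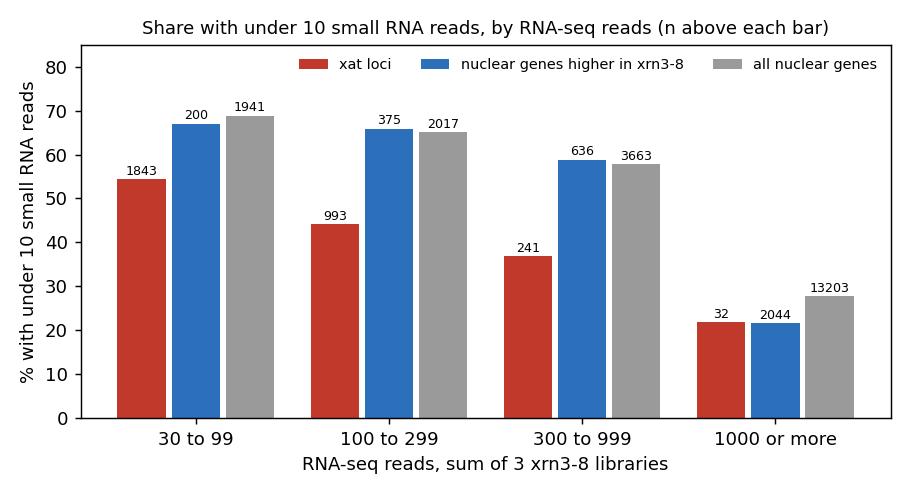
Percent of xat loci (red), nuclear annotated genes higher in xrn3-8 (blue) and all nuclear annotated genes (grey) with under 10 small RNA reads over 6 libraries, by the RNA-seq reads in xrn3-8, with the number of loci or genes above each bar. The bars of xat loci run from 54.4% to 21.9% and stand below both gene sets in the 3 lower classes.

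The members' small RNA was also set against their own RNA. Small RNA reads are here the sum over all 6 libraries, and 1601 of the members' 4706 came from Col-0. RNA reads are the sum over the 3 xrn3-8 libraries, so the proportions mix the genotypes. The median xat locus with RNA had 11.1 small RNA reads per 100 xrn3-8 RNA reads, the median member 2.56 and the median other locus 52.7. Members and other loci are divided by their small RNA reads, so nothing is read from 2.56 against 52.7. The 11.1 is taken over both sets, members included. Since every member is under the small RNA limit, the numbers of members that follow depend on their RNA reads alone. At the proportion of the median xat locus, 601 members (39.1%) had enough RNA for 10 or more small RNA reads, and the other members had less RNA than that. At the median proportion of each locus's own class of RNA reads, chosen after seeing the data, the number was 648 (42.2%). There were 534 members with at least 100 RNA reads and 96 with at least 300, and 69 members with at least 100 RNA reads had 0 small RNA reads.

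RNA of the members was higher in xrn3-8, as the choice of loci fixes. Their summed level was 763, 695 and 951 CPM in the xrn3-8 libraries and 74.5, 92.4 and 85.2 CPM in the Col-0 libraries, which did not overlap. The means were 803 ± 133 CPM in xrn3-8 and 84.1 ± 9.0 CPM in Col-0 (SD, n = 3 each), a ratio of 9.55. The ratio was 7.35 for the other xat loci with RNA and 1.13 for the 6379 assembled loci outside the xat table. In whole seedlings, fewer cells that make an RNA and less of it per cell cannot be told apart. With loci at 0 in Col-0 set to a floor of 3 reads over the group, the median ratio of a member was 12.3, and the ratios at percentiles 10 and 90 were 4.36 and 43.1. No read at all was found in Col-0 for 319 members (20.8%), against 254 (16.2%) of the other xat loci. Every xrn3-8 library exceeded every Col-0 library for 1520 of the 1537 members, where 56.2% of all assembled loci with a read did so. With edgeR, 996 members passed the filter on low counts and all of these were called higher, where 50.7% of all tested loci were. The 541 members that did not pass had a median of 41 RNA reads in xrn3-8. DESeq2 called 1537 of 1537 higher, where it called 44.0% of all loci. As the xat loci are treated as chosen by this contrast, nothing is read from these counts.

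The 3 xrn3-8 libraries did not read the members equally. Replicate 3 had the highest level for 821 members (53.4%), replicate 1 for 25.5% and replicate 2 for 21.1%. Replicate 3 was also the highest for 50.6% of the other xat loci, and for 38.6% of the 4138 loci outside the xat table with at least 30 reads in xrn3-8. The SD of a member over the xrn3-8 libraries was 0.344 of its mean at the median, where counting error alone would give 0.206. Without replicate 3 the ratio of the summed levels was 8.70.

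**Figure D4:**
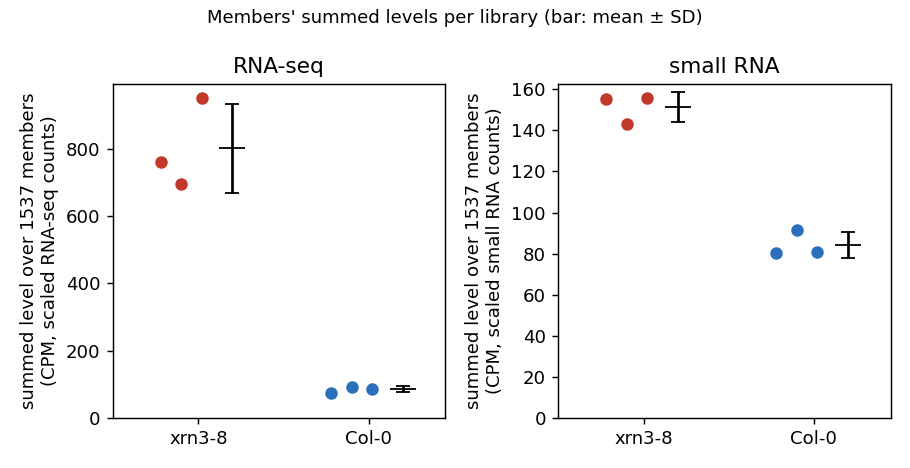
Summed level of the 1537 members in each library (points), with the mean ± SD of each genotype beside them, for RNA-seq (left) and small RNA (right), in CPM on the gene counts of the same assay. RNA-seq averaged 803 CPM in xrn3-8 and 84.1 CPM in Col-0. Small RNA averaged 151 CPM in xrn3-8 and 84.1 CPM in Col-0.

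The most read members had few small RNA reads, as the limit fixes for every member, and their RNA differences were of unlike size. XLOC_004294 had 13.9, 7.04 and 17.0 CPM in xrn3-8, against 2.70, 5.85 and 3.74 CPM in Col-0, the most reads of all members in both genotypes. This locus had a ratio of scaled counts of only 3.03 (exact 95% interval 2.80 to 3.29, counting error only), under the members' percentile 10 of 4.36. It had 9 small RNA reads, 3 in each xrn3-8 library and 0 in each Col-0 library. The proportion of the median xat locus would give 311 and that of loci with 1000 or more RNA reads 239.8. That the locus lies below these values is fixed by the small RNA limit. XLOC_007260 had 8.74, 7.59 and 11.2 CPM in xrn3-8, against 0.0622, 0.212 and 0.118 CPM in Col-0, a ratio of scaled counts of 69.6 (exact 95% interval 47.0 to 108, counting error only). Its 8 small RNA reads also lay in xrn3-8 alone, with 1, 3 and 4 per library. In both loci every xrn3-8 library stood above every Col-0 library for RNA.

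The next loci by reads had large RNA differences, as XLOC_007260 did. XLOC_001684 had 4.48, 4.92 and 8.12 CPM in xrn3-8, against 0.0155, 0.0454 and 0.0169 CPM in Col-0, with 6 small RNA reads in xrn3-8 and 2 in Col-0. XLOC_004441 had 4.51, 3.98 and 7.63 CPM in xrn3-8, against 0.0155, 0.0757 and 0.0507 CPM in Col-0, and its 4 small RNA reads were all from xrn3-8. XLOC_007525 had 4.57, 4.39 and 5.82 CPM in xrn3-8, against 0.155, 0.242 and 0.118 CPM in Col-0. Its small RNA went the other way, with 1 read in xrn3-8 and 4 in Col-0. XLOC_001990 had 4.26, 5.44 and 4.65 CPM in xrn3-8, against 0.357, 0.242 and 0.270 CPM in Col-0, and it came closest to no small RNA among the 10 most read, with 1 read, in Col-0 replicate 1. XLOC_000348 had 3.11, 3.86 and 5.84 CPM in xrn3-8 and 1 RNA read in Col-0, in replicate 3. Its ratio was 823 with an interval of 147 to 32530, since it rests on that read, and its 5 small RNA reads came from xrn3-8. The other 3 of the 10, XLOC_005757, XLOC_008365 and XLOC_005096, averaged 4.86, 4.16 and 3.79 CPM in xrn3-8 and 0.0484, 0.0366 and 0.0268 CPM in Col-0, with 3, 6 and 2 small RNA reads. In all 10 loci the RNA of the genotypes did not overlap. No member passed the filter on low small RNA counts, so none was compared for small RNA.

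Members with no small RNA read at all had less RNA than these. The 282 loci summed to 92.8, 91.6 and 118 CPM in xrn3-8, against 8.88, 8.67 and 8.57 CPM in Col-0, a ratio of 11.6. XLOC_001967 was the most read, with 2.20, 2.07 and 2.17 CPM in xrn3-8, against 0.995, 0.545 and 0.659 CPM in Col-0. At the proportion of the median xat locus its 480 xrn3-8 reads would give 53.3 small RNA reads. At the median proportion of loci with at least 300 and under 1000 RNA reads they would give 22.9. The 0 found is fixed by the choice of these loci. XLOC_003598 had 2.28, 1.86 and 2.07 CPM in xrn3-8, against 0.0777, 0.0909 and 0.0676 CPM in Col-0, a ratio of 25.9 (15.6 to 46.7). XLOC_007543 had 97, 153 and 129 reads in xrn3-8, against 2, 4 and 1 reads in Col-0, a ratio of 45.8 (22.0 to 115). XLOC_008745 had 1.02, 1.02 and 1.18 CPM in xrn3-8 and 2 reads in Col-0, both in replicate 1, a ratio of 102 (27.9 to 846). In these 4 loci the xrn3-8 libraries were close together. XLOC_001967 was the nearest to Col-0, with a ratio of 2.92 (2.41 to 3.55), under the members' percentile 10 of 4.36. The others were far from Col-0.

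Others of the 10 most read loci without small RNA were less even. XLOC_002375 had 122, 81 and 251 reads in xrn3-8, against 8, 5 and 1 reads in Col-0. XLOC_001095 had 1.21, 0.298 and 2.69 CPM in xrn3-8, against 0.0155, 0.0303 and 0.0507 CPM in Col-0, so replicate 3 held 212 of its 314 xrn3-8 reads. XLOC_005788 had 1.19, 2.37 and 1.69 CPM in xrn3-8, against 0.435, 0.485 and 0.541 CPM in Col-0, where it was read in every library. The remaining 3, XLOC_009467, XLOC_004462 and XLOC_009451, had 316, 300 and 294 reads over the xrn3-8 libraries and 28, 34 and 19 over the Col-0 libraries. All 10 were above Col-0 in every xrn3-8 library.

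**Figure D5:**
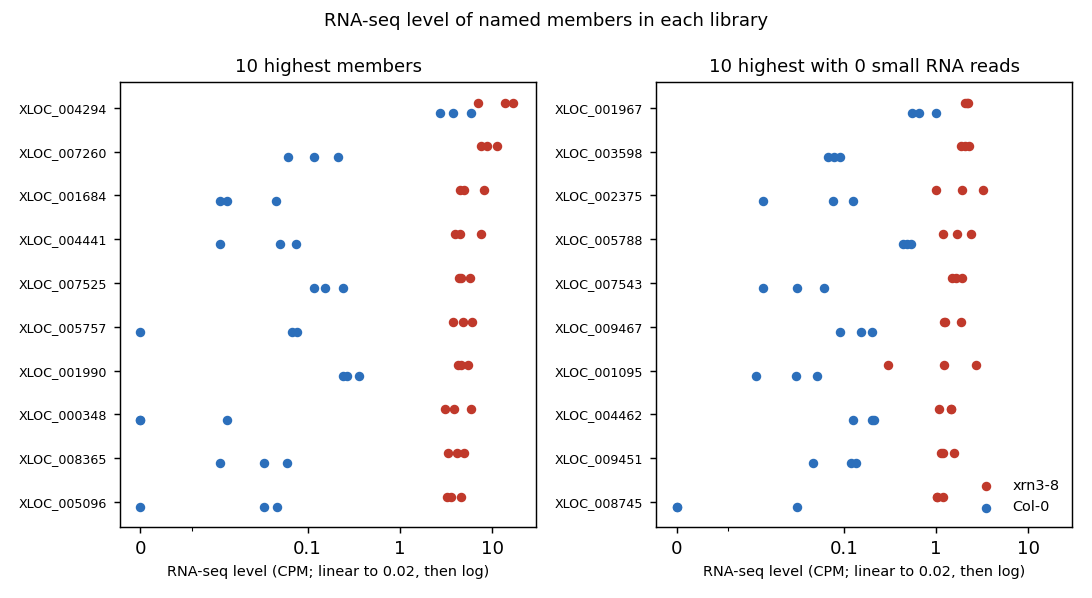
RNA-seq level of the 10 most read members (left) and the 10 most read members with 0 small RNA reads (right), by locus, in each of 3 xrn3-8 (red, upper) and 3 Col-0 (blue, lower) libraries, in CPM on an axis that is linear to 0.02 and logarithmic above. In each of these 20 loci the xrn3-8 points lie right of the Col-0 points, from 0.298 CPM in XLOC_001095 to 17.0 CPM in XLOC_004294.

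Some members were read in wild type as well. At least 30 Col-0 reads were found for 114 members. After XLOC_004294, the highest in Col-0 were XLOC_004404, with 3.10, 3.49 and 4.61 CPM in xrn3-8 and 0.762, 2.20 and 1.88 CPM in Col-0, and XLOC_004842, with 219, 186 and 358 reads in xrn3-8 and 36, 66 and 116 reads in Col-0. Both were higher in every xrn3-8 library. XLOC_008758 averaged 2.52 ± 0.262 CPM in xrn3-8 and 0.843 ± 0.223 CPM in Col-0, and XLOC_008653 averaged 2.60 ± 1.53 CPM in xrn3-8 and 0.803 ± 0.171 CPM in Col-0 (SD, n = 3 each). These 4 loci had 3 to 5 small RNA reads each. Among members with a mean of at least 1 CPM in xrn3-8, those with the widest spread there were XLOC_001095, XLOC_000110, XLOC_001962, XLOC_003596 and XLOC_008494, with an SD of 0.863, 0.714, 0.653, 0.652 and 0.612 of the mean. XLOC_000110 had 2.29, 0.422 and 3.15 CPM in xrn3-8 and 0.0777, 0.212 and 0.473 CPM in Col-0, so the genotypes overlapped through its replicate 2.

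The few small RNA reads of the members were more frequent in xrn3-8. They numbered 956, 974 and 1175 in the xrn3-8 libraries and 543, 582 and 476 in the Col-0 libraries. On the scale of small RNA gene counts this was 151 ± 7.4 CPM in xrn3-8 and 84.1 ± 6.2 CPM in Col-0 (SD, n = 3 each), a ratio of 1.80 with no overlap. A read in xrn3-8 and none in Col-0 was found for 412 members, a read in Col-0 and none in xrn3-8 for 164, and reads in both for 679. The limit on the sum over both genotypes holds down how far a member can rise, so the ratio describes what the limit left. Nuclear genes under the same limits, 8423 in number, had 991 ± 135 CPM in xrn3-8 and 823 ± 62.5 CPM in Col-0, a ratio of 1.21, also with no overlap. The 1198 of them called higher in xrn3-8 RNA-seq had a ratio of 1.24, again with no overlap. Their RNA ratio was 1.68, against 9.55 for the members.

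Between classes of RNA the small RNA ratio of the members lay between 1.65 and 1.96. Members with 0 RNA reads in Col-0 had 169, 163 and 204 small RNA reads in the xrn3-8 libraries, and 100, 113 and 74 in the Col-0 libraries, a ratio of 1.74. Members with 1 to 9, 10 to 29 and 30 or more Col-0 RNA reads had ratios of 1.87, 1.77 and 1.65. Their RNA ratios were 21.2, 7.72 and 4.20. The Col-0 RNA reads that form these classes also divide the RNA ratio, so its fall is built in. As the limit holds down the small RNA ratio, nothing is read from setting it beside the RNA ratio. By RNA reads in xrn3-8, the small RNA ratio was 1.85 for members with 30 to 99, 1.68 for at least 100 and under 300, and 1.96 for 300 or more. In each of these classes every xrn3-8 library was above every Col-0 library. None of these differences between classes was tested.

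Classes of small RNA count put the members beside the loci above the limit. From 0 over 1 to 4 and 5 to 9 small RNA reads, the median RNA count in xrn3-8 was 57, 72 and 83, and it was 88 at 10 to 49, 102 at 50 or more and under 500, and 95 at 500 or more. The ratio of summed RNA levels between the genotypes was 11.6, 10.2 and 8.20 for the 3 member classes and 7.65, 7.02 and 7.26 for the others. The share without a Col-0 RNA read was 30.9%, 19.4% and 16.8% in the member classes and 13.6%, 16.2% and 22.0% in the others. The classes also differ in RNA reads, and the members' RNA ratio itself differed by RNA reads in xrn3-8. It was 11.97 for members with 30 to 99 reads, 8.72 for at least 100 and under 300, and 8.79 for 300 or more. What part RNA reads have in the ratios and shares of the small RNA classes was not tested. The ratio of small RNA was 1.54 at 1 to 4 reads, 1.99 at 5 to 9, 2.35 at 10 to 49, 1.26 at 50 or more and under 500, and 1.52 at 500 or more, so it did not change in 1 direction over the classes.

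Of 18 listed genes of small interfering RNA production, all tested with edgeR over all genes in the RNA-seq libraries, 6 were higher and 1 was lower in xrn3-8. Among all tested genes 15.8% were higher and 17.5% lower. The list's median log2 fold change was 0.16, against 0.000993 over all genes. DCL2, which cuts double-stranded RNA into small RNAs, had a log2 fold change of 0.52 (SE 0.09), with 23.0 ± 1.99 CPM in xrn3-8 and 16.0 ± 0.574 CPM in Col-0 (SD, n = 3 each). AGO1, which binds microRNAs and small interfering RNAs, averaged 80.9 ± 3.26 CPM in xrn3-8 and 59.3 ± 1.33 CPM in Col-0, a log2 fold change of 0.45 (SE 0.07). RDR2, a polymerase of RNA-directed DNA methylation, rose by a log2 fold change of 0.60. NRPE1, the largest subunit of RNA polymerase V, which acts in that methylation, rose by 0.45, and AGO2, known from defence against viruses, by 0.57. RDR6 and SGS3, which start small RNA production from aberrant RNA, had log2 fold changes of 0.13 and 0.22 (edgeR adjusted p = 0.33 and 0.18). DCL3, at 0.34, passed in 1 of the 6 fits that left out a library, that without xrn3-8 replicate 1. RDR1, at -0.27, did not pass without xrn3-8 replicate 3, Col-0 replicate 1 or Col-0 replicate 2, and without xrn3-8 replicate 2 the list had 2 lower genes. With total gene counts as the scale RDR1 had -0.11 (edgeR adjusted p = 0.29).

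Of 17 listed RNA decay genes, all tested, 4 were higher and 2 lower, with a median log2 fold change of 0.09. VCS, a scaffold of the decapping complex, averaged 79.0 ± 9.47 CPM in xrn3-8 and 47.8 ± 1.51 CPM in Col-0 (SD, n = 3 each), a log2 fold change of 0.73 (SE 0.09). The lower genes were XRN3 and SAL1, whose phosphatase breaks down an inhibitor of XRN enzymes. SAL1 had a log2 fold change of -0.65 (SE 0.08). RRP4, a subunit of the RNA exosome, had 0.45, and of the fits without a library it passed only without xrn3-8 replicate 3 or Col-0 replicate 3. SKI2, a helicase of the cytoplasmic exosome, had 0.30, and did not pass without xrn3-8 replicate 1, Col-0 replicate 1 or Col-0 replicate 2. HEN2, a helicase of the nuclear exosome, had 0.25, and of those fits passed only without xrn3-8 replicate 3. The list had 1 higher gene without xrn3-8 replicate 1, Col-0 replicate 1 or Col-0 replicate 2, and 2 without xrn3-8 replicate 2. With total gene counts as the scale, the median of all genes moved to 0.16, and 26.3% of the tested genes were higher and 10.7% lower. On that scale 9 silencing genes were higher and 0 lower, and 7 decay genes were higher and 2 lower.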

How the data were processed

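The authors deposited raw whole-number counts, 1 table per library, with reads of genes and assembled loci counted together for RNA-seq. Per the labels' protocols, RNA-seq used stranded, ribosomal-RNA-depleted total RNA. Per the submitters' processing notes, HISAT2 (RNA-seq), Bowtie (small RNA), HTSeq, DESeq2 and bedtools were used with TAIR10. For settings, strand use and reads with several positions, the sources used here give nothing. In RNA-seq, a read that overlaps a gene and a locus may have been counted in neither. Small RNA over genes and over xat loci was counted separately, so a small RNA read may count for both. XLOC_002355 had 1818519 small RNA reads in xrn3-8 and 1390 in Col-0, close to the 1818725 and 1416 of XRN3. Unassigned reads, 22.6% to 26.1% of RNA-seq and 74.6% to 77.1% of small RNA reads against genes, were left out.

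Loci were scaled by TMM factors of the gene table of their assay. edgeR 4.0.16 (quasi-likelihood, two-sided, filterByExpr with a minimum count of 10, Benjamini-Hochberg over all loci or genes tested, threshold 0.05) and DESeq2 1.42.0 were run in R 4.3.3. Only edgeR was tested on simulated data. A standard error is the log2 fold change over the square root of F. Intervals of count ratios are exact binomial at 95%, and they and the floor of 3 reads cover counting error only. No member passed the small RNA filter. Named members were the 10 most read in xrn3-8, the 10 most read with 0 small RNA, the 5 highest in Col-0, the 5 with the largest spread at 1 CPM or more and those nearest each limit. From the gene lists, those past the threshold were named, RDR6 and SGS3 in addition. The members, lists and rules were chosen with earlier results of these data known. Gene names follow the reference table of TAIR10.1. Windows beside genes were not used.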

Additional observations from a re-analysis of the deposited data

How the results depend on the processing

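The number of loci depends on where the limits are set. It was 282 (9.07% of loci with RNA) with 0 small RNA reads, 1108 (35.6%) under 5, 1914 (61.6%) under 20, 1592 (49.7%) with at least 10 RNA reads, 534 (42.2%) with at least 100, 96 (35.2%) with at least 300, and 1346 (43.3%) with under 5 reads in the xrn3-8 small RNA libraries alone. Leaving out 1 library gave 1083 to 1727 loci and 46.8% to 55.5%. The limits were not rescaled for this. Without a small RNA library the number of loci could thus only rise, and without an xrn3-8 RNA-seq library only fall.

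The ratio of summed RNA was 9.60 to 10.7 with 3 other scales. With TMM factors of the assembled loci, which take out a shift common to the loci by construction, it was 4.74 and the median level in xrn3-8 0.221 CPM, 591 members and 1316 of all loci were higher and 1127 lower (53.9% of calls higher instead of 94.8%). With 1 library left out the RNA ratio was 8.70 to 10.3 and the median level 0.290 to 0.342 CPM. The small RNA ratio was 1.99 without XRN3 in the total, and 1.78 to 1.94 with 1 library left out. With DESeq2, 1537 members and 4189 loci were higher, and with edgeR and no filter on low counts 1537 and 4777. Both tested 9516 loci instead of 5329, and DESeq2 also differs in its test and scale, whose parts were not separated. With 1 library left out, 1013 to 1371 members and 2462 to 3383 loci were higher. Those fits tested 1061 to 1382 members instead of 996, so a larger number of calls is not stronger support.

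Replicate numbers do not pair the libraries by label. Correlations of deviations for equal numbers were 0.050, 0.130 and 0.092 over genes, where each library agreed best with its own number, and -0.044, -0.021 and 0.029 over the assembled loci, where xrn3-8 replicates 1 and 2 agreed best with Col-0 replicates 2 and 1. The replicate block gave 996 members and 2521 loci. A locus at the small RNA limit differs from its neighbours by single reads, which this depth does not resolve.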
